A study of Homo sapiens with 39 samples.

Results

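The genes described here are 10 transcription factor genes of the neural crest and of the pigment lineage, among 23710 genes measured in RPE1 and CHP-134 cells with altered TRIM37. They are TFAP2A, TFAP2B, MITF, ZNF488, SOX4, SOX9, SOX11, SNAI2, TWIST1 and MSX1. TFAP2A, MITF and ZNF488 were chosen by their log2 fold changes and q values, since the fold changes were below 0 and past the threshold in all 3 comparisons of TRIM37 loss, so their values there are a description and carry no test. The other 7 were listed as regulators of the same lineages, with results of these data already known.

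The study asked how the amount of TRIM37, a ubiquitin ligase, goes with gene expression in 2 human cell lines. hTERT-RPE1 is a retinal pigment epithelial line immortalised with telomerase and is not transformed. CHP-134 is a neuroblastoma line, a tumour type that arises from the neural crest. RNA sequencing covered 39 libraries: 9 of RPE1 with a TRIM37 knockout and 9 of wild type RPE1, labelled as 3 sets; 3 of CHP-134 mutant clone 1, 3 of mutant clone 2 and 3 of wild type CHP-134; and, for TetOn clone 4 and TetOn clone 5 alike, 3 with doxycycline and 3 without. The labels call both CHP-134 mutants partial knockouts. The TetOn clones are RPE1 cells carrying a TRIM37 gene that doxycycline switches on, given at 1 µM for 24 h. Each CHP-134 mutant and each TetOn line is 1 clone, and no parental RPE1 with doxycycline is among the groups used here, so an effect of the drug itself cannot be told apart from that of TRIM37.

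Neural crest cells arise at the border of the neural plate, leave the epithelium and form melanocytes, peripheral neurons, glia and the skeleton of the face. AP-2 factors and MSX1 act early, at the border; SNAI2, TWIST1 and SOX9 belong to the specifier and migration programme; SOX4 and SOX11 act in neuronal progenitors. MITF is the master regulator of pigment cells, both of crest-derived melanocytes and of the retinal pigment epithelium, which does not come from the crest.

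TFAP2A and MITF, the chosen members for which RefSeq promoters were at hand, are shown as the 250 bases before each annotated start, on GRCh38.p14. They are printed because both genes have several starts, while the deposited values count a gene as a whole, so the starts cannot be told apart. Capitals mark matches to 6 motifs searched on both strands: GCCNNNGGC of AP-2, CATGTG, which is the core of the M-box bound by MITF, CACGTG, which is the E-box, CAGGTG, which SNAIL factors bind, and ACAAAG and ACAATG of SOX factors.
TFAP2A, upstream start, chr6:10419660-10419909, minus strand: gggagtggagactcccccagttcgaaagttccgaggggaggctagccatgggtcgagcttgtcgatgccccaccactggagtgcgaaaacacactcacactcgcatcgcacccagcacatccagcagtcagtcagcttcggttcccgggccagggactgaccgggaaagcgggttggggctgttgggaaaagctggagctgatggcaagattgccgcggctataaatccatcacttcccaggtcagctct
TFAP2A, downstream start, chr6:10412392-10412641, minus strand: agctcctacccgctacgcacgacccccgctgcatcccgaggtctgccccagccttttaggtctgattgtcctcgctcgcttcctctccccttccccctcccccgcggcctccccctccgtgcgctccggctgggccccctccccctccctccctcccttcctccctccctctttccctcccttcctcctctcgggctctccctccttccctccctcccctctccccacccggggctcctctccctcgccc
MITF, most upstream start, chr3:69739214-69739463, plus strand: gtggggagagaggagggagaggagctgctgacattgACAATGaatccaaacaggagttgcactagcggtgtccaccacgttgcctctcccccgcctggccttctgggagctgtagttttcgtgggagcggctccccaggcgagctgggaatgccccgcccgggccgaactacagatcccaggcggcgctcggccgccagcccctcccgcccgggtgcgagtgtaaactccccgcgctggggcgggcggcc
MITF, middle start, chr3:69763561-69763810, plus strand: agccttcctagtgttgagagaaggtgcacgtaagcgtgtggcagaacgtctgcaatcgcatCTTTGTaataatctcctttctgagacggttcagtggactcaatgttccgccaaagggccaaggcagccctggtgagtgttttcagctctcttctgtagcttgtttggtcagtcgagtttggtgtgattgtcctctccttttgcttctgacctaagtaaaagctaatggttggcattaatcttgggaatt
MITF, most downstream start, chr3:69936342-69936591, plus strand: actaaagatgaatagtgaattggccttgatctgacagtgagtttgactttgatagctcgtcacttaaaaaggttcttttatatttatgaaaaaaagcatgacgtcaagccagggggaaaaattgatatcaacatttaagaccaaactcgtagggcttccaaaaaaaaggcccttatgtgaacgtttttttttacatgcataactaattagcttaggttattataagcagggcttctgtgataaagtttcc

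Of the 5 starts printed, 2 held a match. The most upstream MITF start, known for the widely expressed A form, held ACAATG from 214 to 209 bases before the start, and the middle start held the reverse complement of ACAAAG from 189 to 184 bases before it. Among 35116 RefSeq promoters of the same length, ACAATG was present in 9.29% and ACAAAG in 13.7%. For GCCNNNGGC the share was 19.8%, for CAGGTG 17.5%, for CATGTG 9.42% and for CACGTG 6.34%, and none of these lies in the 5 windows printed. The windows differ in base composition. The GC content was 59.6% and 71.2% for the TFAP2A starts and 68.0%, 46.8% and 34.8% for the MITF starts, the most downstream of which is known for the melanocyte form.

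The files used here hold 1 table per comparison, with no value per library, so the spread between libraries is not shown and the depth of each library is unknown. The log2 fold changes and q values, and the standard errors (SE) beside them, are the authors' own and compare the altered group with its control. Called genes are those with q below 0.05. Usable genes are those that the authors neither set aside as outliers nor listed under Low, a class of genes with a mean count of at most 10. No source used here says that libraries of a group were separate cultures, so q values may measure technical spread alone. TRIM37 had a log2 fold change of -1.95 in the knockout, -1.66 and -1.75 in CHP-134 clones 1 and 2, and 3.19 and 2.64 in TetOn clones 4 and 5 in the authors' deposited tables, and its sign set the direction of each table.

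To show levels, the mean count and the fold change of a gene were solved for the level of each group and scaled so that the mean counts of a table sum to 1000000, giving a level in counts per that total (CPM). The wild type CHP-134 libraries serve 2 tables, and their level from clone 2's table over that from clone 1's had a median of 1.00 and ran from 0.993 at the 5th to 1.01 at the 95th percentile of 10905 genes. Levels set across tables were scaled separately and are a description. They are not corrected for gene length, so they are compared for 1 gene between groups and not between genes. In such bulk samples, fewer cells with a transcript and less transcript per cell cannot be told apart.

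The labels were set beside defining markers. Of 8 melanocyte markers, 4 were listed at 0 in the knockout comparison, and the whole list summed to 0.683 to 1.45 CPM in the RPE1 tables and to 2.61 and 3.06 in the CHP-134 tables. SOX10, the defining factor of migrating crest and glia, had a mean count of 0 in all 5 of the authors' deposited tables, and PAX3 and FOXD3 were under Low throughout. RPE65 and TTR, which define mature retinal pigment epithelium, were at or near 0 in RPE1, while OTX2, an early factor of that tissue, had a mean count of 874 in the authors' deposited table of the knockout. Of the 10 markers of that tissue, 6 were under Low in this comparison and 4 were usable. The usable ones included RDH5, at a mean count of 106, and LRAT, at 16.6, in the authors' deposited table. In CHP-134, MYCN, the oncogene amplified in many neuroblastomas, had a mean count of 49700 in the authors' deposited table of clone 1. The 12 adrenergic neuroblastoma markers, MYCN among them, summed to 3650 CPM in that comparison. Of these 12, TH and DBH were under Low in the comparisons of both CHP-134 clones.

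In the RPE1 knockout 8 of the 9 usable members were called, 5 up and 3 down, and the 3 down are the chosen ones. Among all usable genes 53.6% were called in this comparison. In CHP-134 clone 1, 3 of 7 usable members were called, all of them chosen ones and all down, against 18.7% of all usable genes. In clone 2, 4 of 7 were called, all down, namely the chosen 3 and SOX9, against 46.2% of all usable genes. Doxycycline called 0 of 7 members in TetOn clone 4 (1 of 7, SOX9, at an unadjusted p under 0.05 from fold change and SE), where 1.95% of usable genes were called, and SOX9 and SOX4, both down, of 9 in TetOn clone 5, where 2.97% were. Called down in all 3 loss comparisons were 169 of 11054 genes usable in each, or 1.53%, and the chosen 3 are among them by their choice. The CHP-134 clones share their wild type libraries. With the statistics of each table rescaled to their own central spread, SOX9 was called in the knockout and 0 members in either CHP-134 clone. The chosen TFAP2A and MITF also stayed past the threshold in the knockout, which is no test of them, since these values were used to choose them.

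**Figure D1:**
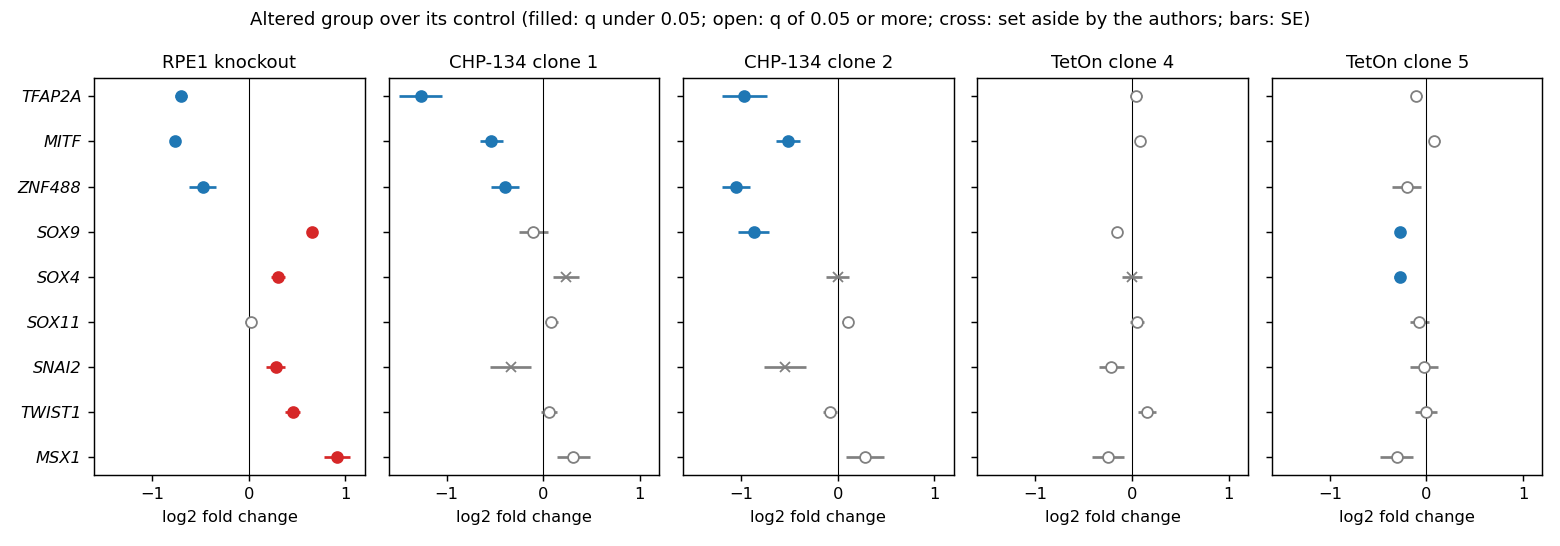
Log2 fold change (x axis) of 9 members (rows) in the 5 comparisons (panels), altered group over control, with bars of 1 SE. TFAP2A, MITF and ZNF488 lie left of 0 in the first 3 panels; SOX9 lies right of 0 in the RPE1 knockout, at 0.66, and left of it in CHP-134 clone 2, at -0.87.

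TFAP2A encodes AP-2 alpha, which specifies the neural plate border and later works beside MITF in melanocytes. Its level was 28.3 CPM in the knockout and 46.0 in wild type RPE1. In CHP-134 it was far lower, 0.793 CPM in clone 1 and 1.01 in clone 2, against 1.91 and 1.97 in wild type as solved from either table. The log2 fold changes in the authors' deposited tables were -0.70, SE 0.062 in the knockout, -1.27, SE 0.225 in clone 1 and -0.97, SE 0.231 in clone 2. TFAP2A had the largest fall of the members in clone 1, at a mean count of 39.2 in the authors' deposited table. Antisense genes overlap TFAP2A, as they do SOX9, in GENCODE, and neither they nor the strand setting is given in the tables, so reads of both strands may be summed. Of its nearest usable neighbours on chromosome 6, GCNT2 was at -0.47 in the knockout, called, and at 0.37 and -0.34 in clones 1 and 2, not called, in the authors' deposited tables. LOC100506207, on the other side, was at 0.39 in the knockout and -0.16 in clone 1, not called, in the authors' deposited tables. In clone 2 it was called down with TFAP2A, at -0.71 and a mean count of 17.3 in the authors' deposited table. TFAP2B, its paralog, which marks sympathetic neurons and facial crest, had a mean count of 0 in all 5 of the authors' deposited tables.

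MITF was at 43.3 CPM in the knockout and 73.6 in wild type RPE1. It was at 5.80 in CHP-134 clone 1 and 5.91 in clone 2, against 8.41 and 8.45 in wild type. The authors' deposited tables give log2 fold changes of -0.77, SE 0.0464 in the knockout, -0.54, SE 0.121 in clone 1 and -0.52, SE 0.126 in clone 2. Both clones lay below wild type in level. The nearest usable genes on chromosome 3 did not share this pattern: FRMD4B, on one side, was at 4.37, 0.31 and -1.08, all called, and FOXP1, on the other, at -0.041, 0.020 and 0.017, none called, in the authors' deposited tables of the knockout and clones 1 and 2.

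ZNF488 encodes a zinc finger repressor known in mouse for promoting oligodendrocyte differentiation. Its level was 2.09 CPM in the knockout and 2.91 in wild type RPE1, and 5.25 in clone 1 and 3.32 in clone 2, against 6.90 and 6.88 in wild type CHP-134. In the authors' deposited tables the log2 fold change was -0.48, SE 0.141 in the knockout, -0.39, SE 0.147 in clone 1 and -1.05, SE 0.145 in clone 2. The value in clone 1 lay just inside the threshold, at q = 0.0422, and with the median of chromosome 10 subtracted it was -0.37 and not called. Its neighbour MAPK8 was called down in the knockout, at -0.22, and in clone 2, at -0.15, and not called in clone 1, at 0.048, in the authors' deposited tables. On the other side HNRNPA1P33 was called down in the knockout, at -1.02 and a mean count of 10.4 in the authors' deposited table. By the authors' deposited tables NCOA4, the nearest usable gene there in CHP-134, was at -0.073 and -0.15 in clones 1 and 2, neither called. SNAI2 did not meet the rule: it was lower in both CHP-134 clones but set aside as an outlier there, and it was called up in the knockout.

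Induction of TRIM37 is a comparison the choice of these 3 genes did not use, and none of them was called in it. With doxycycline TFAP2A was at 25.4 CPM in TetOn clone 4 and 38.4 in clone 5, against 24.7 and 41.3 without. MITF was at 42.9 and 49.2 CPM with doxycycline, against 40.4 and 46.5 without. In the authors' deposited tables of TetOn clones 4 and 5, TFAP2A was at 0.039 (q = 0.934) and -0.11 (q = 0.479) and MITF at 0.085 (q = 0.663) and 0.082 (q = 0.658). ZNF488 was under Low in clone 4, with a mean count of 7.36, and the authors' deposited tables put it at -0.20, SE 0.149, q = 0.742 in clone 5.

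The RPE1 lines differed among themselves before any induction. TFAP2A stood at 28.3 CPM in the knockout, and at 24.7 and 41.3 in untreated TetOn clones 4 and 5 and 46.0 in wild type. For MITF these levels were 43.3 in the knockout, 40.4 and 46.5 in the untreated TetOn clones and 73.6 in wild type. For SOX9 they were 111 in the knockout, 158 and 117 in the untreated TetOn clones and 70.3 in wild type. The knockout levels of TWIST1, MSX1 and SNAI2 lay above those of the other 3 RPE1 lines. For the other members with a level above 0, the knockout lay within the range of those lines. How often this holds over all genes was not computed, so it is a description and not a trait of the members. TRIM37 itself was at 17.9 CPM in the knockout, 148 and 265 in untreated TetOn clones 4 and 5 and 69.0 in wild type, so the untreated TetOn clones were not at the wild type level of TRIM37. ZNF488 was at 0.281 CPM in untreated TetOn clone 4 and 3.17 in untreated clone 5. The part of differences between lines in the knockout's values was not tested, as no value per library was used here and the labels do not say whether the knockout is 1 clone.

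**Figure D2:**
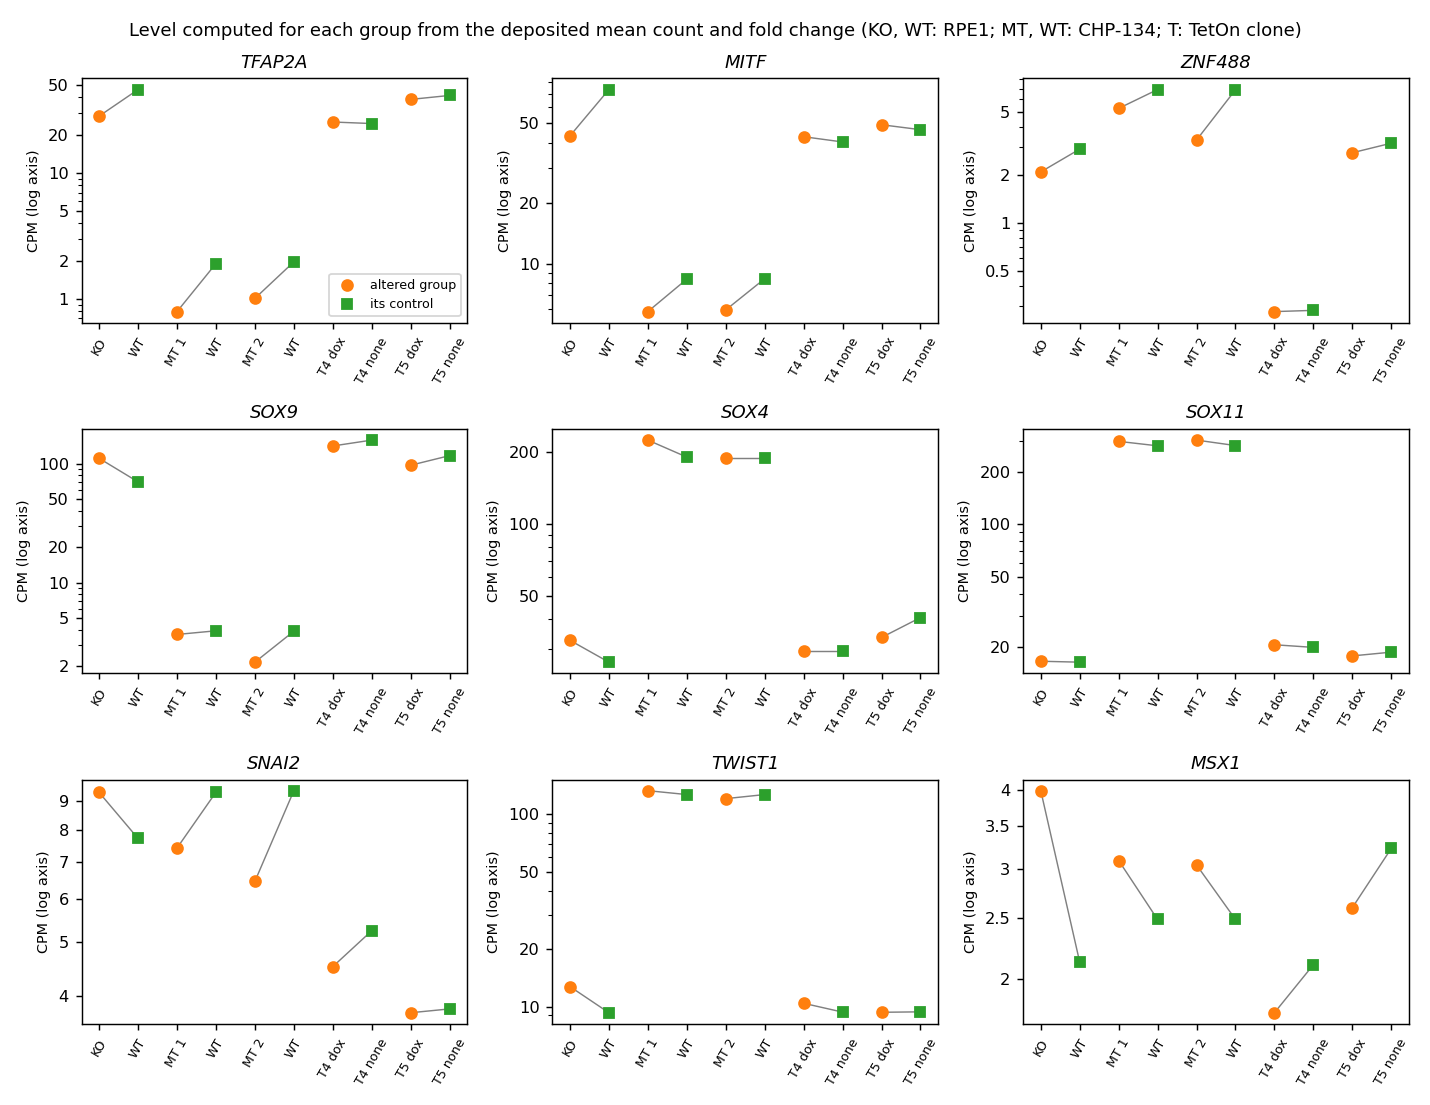
Level in CPM (log axis) of 9 members in each altered group (circles) and its control (squares), joined by a line for each table; there are no error bars because no value per library was used. MITF in the RPE1 knockout, at 43.3, lies beside the untreated TetOn clones, at 40.4 and 46.5, and below wild type RPE1, at 73.6.

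SOX9 drives crest specification and later cartilage. It was called up in the knockout and down in CHP-134 clone 2, and was not called in clone 1. It rose to 111 CPM in the knockout, against 70.3 in wild type RPE1, and fell to 2.14 in CHP-134 clone 2, against 3.90 in wild type. In clone 1 it was at 3.66, against 3.93. The authors' deposited tables give log2 fold changes of 0.66, SE 0.0445, q = 0 as printed in the knockout, -0.87, SE 0.161, q = 6.77e-07 in clone 2 and -0.10, SE 0.153, q = 0.708 in clone 1. A test of the difference of fold changes gave 1.53, SE 0.167 for the knockout minus clone 2, with a Benjamini-Hochberg adjusted p = 1.3e-18 by a normal test over 11160 genes, and 0.76, SE 0.159 for the knockout minus clone 1, with adjusted p = 1.54e-05 over 11194 genes. In these tests 46.5% and 34.1% of all genes passed, and the tests were not repeated with the null rescaled. Between the CHP-134 clones SOX9 differed as well, by -0.77, SE 0.222 for clone 2 minus clone 1, with adjusted p = 0.00466, where 20.5% of 12579 genes passed; with the null rescaled, this difference did not pass.

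Induced TRIM37 came with less SOX9 in TetOn clone 5, and the value in clone 4 did not pass. It fell to 97.1 CPM with doxycycline in TetOn clone 5, against 117 without, and was at 141 against 158 in clone 4. The authors' deposited tables give -0.27, SE 0.0509, q = 1.01e-05 in clone 5 and -0.16, SE 0.05, q = 0.0579 in clone 4. The difference between the TetOn clones was -0.11, with a 95% interval from -0.252 to 0.0278, and 0.221% of genes differed between them. Beside SOX9 on chromosome 17, the potassium channel gene KCNJ2 was at 0.50 in the knockout and -0.44 and -0.52 in TetOn clones 4 and 5 in the authors' deposited tables, all called. LINC00673, on the other side, was at 0.46 in the knockout, called, and at 0.075 and 0.17 in TetOn clones 4 and 5, not called, in the authors' deposited tables. In CHP-134 clone 2, where SOX9 fell, the nearest usable gene on KCNJ2's side was ABCA5, which fell by 0.81 (q = 2.72e-15), while LINC00673 was at -0.035 and not called, in the authors' deposited table. In clone 1 ABCA5 was at -0.091 and LINC00673 at 0.063, neither called, in the authors' deposited table.

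SOX4, a partner of SOX11 in neuronal and progenitor programmes, was called in the knockout and in TetOn clone 5. It rose to 32.6 CPM in the knockout, against 26.4 in wild type, and fell to 33.5 with doxycycline in TetOn clone 5, against 40.6 without. The authors' deposited tables give 0.31, SE 0.0722, q = 7.53e-05 and -0.28, SE 0.0556, q = 6.1e-05 for these. The authors set SOX4 aside as an outlier in TetOn clone 4 and in both CHP-134 tables, where it was at -0.00082 in TetOn clone 4, 0.24 in clone 1 and 0.00020 in clone 2 in the authors' deposited tables. Its neighbours in the knockout were CDKAL1, at -0.11 and not called, and DCDC2, at -0.55 and called, in the authors' deposited table. The knockout and TetOn comparisons share no libraries. Among 11979 genes usable in the knockout and TetOn clone 5, 103 were called up in the knockout and down with doxycycline, or 0.86%. SOX9 and SOX4 are 2 of them. This overlap was not planned and was not counted for TetOn clone 4, where 0 members were called. It is a description and was not tested.

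**Figure D3:**
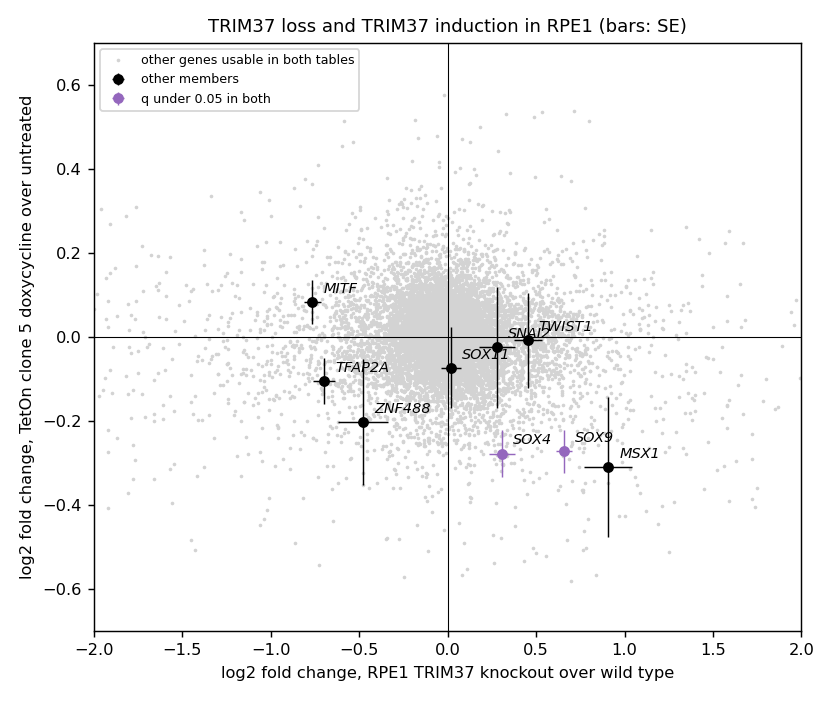
Log2 fold change in the RPE1 knockout (x axis) and in TetOn clone 5 with doxycycline (y axis) for 9 members, with bars of 1 SE, over the other usable genes in grey. SOX9 (0.66 and -0.27) and SOX4 (0.31 and -0.28) were called in both, with opposite signs; TFAP2A and MITF lie left of 0 with values near 0 on the y axis.

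MSX1, a homeobox gene that acts at the plate border, had the largest rise of the members in the knockout. It was at 3.99 CPM there, against 2.13 in wild type RPE1, with a log2 fold change of 0.91, SE 0.135, q = 1.18e-10 in the authors' deposited table. Its neighbours STX18 and STK32B were called up there as well, at 0.15 and 1.54 in the authors' deposited table. In CHP-134 MSX1 was at 3.09 in clone 1 and 3.04 in clone 2, against 2.49 in wild type from either table, and the authors' deposited tables put it at 0.31 (q = 0.214) and 0.29 (q = 0.234). The change in the knockout exceeded that in clone 1 by 0.60, SE 0.22 (adjusted p = 0.0232, difference of fold changes, Benjamini-Hochberg). It exceeded that in clone 2 by 0.62, SE 0.24 (adjusted p = 0.0227, same test). These contrasts were not repeated with the null rescaled, and the effect of unequal shrinkage on them was not tested. With doxycycline MSX1 was at 1.77 and 2.60 CPM in TetOn clones 4 and 5, against 2.11 and 3.23 without, and the authors' deposited tables put it at -0.25 (q = 0.693) and -0.31 (q = 0.524).

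TWIST1 and SNAI2 encode regulators of the epithelial-mesenchymal transition by which crest cells leave the neural tube. TWIST1 rose to 12.7 CPM in the knockout, against 9.29 in wild type RPE1 and 9.36 and 9.39 in the untreated TetOn clones. Its log2 fold change was 0.45, SE 0.0781, q = 2.8e-08 in the authors' deposited table. Of its neighbours in the knockout, ITGB8 was called up, at 0.70, and HDAC9 down, at -0.35, in the authors' deposited table. In CHP-134 TWIST1 was at 132 and 120 CPM in clones 1 and 2, against 126 in wild type, and the authors' deposited tables put it at 0.058 (q = 0.70) and -0.077 (q = 0.395). The change of TWIST1 in the knockout exceeded that in clone 1 by 0.40, SE 0.115 and that in clone 2 by 0.53, SE 0.106, with adjusted p = 0.00285 and adjusted p = 3.57e-06 by the same test of the difference. With doxycycline TWIST1 was at 0.15 (q = 0.632) in TetOn clone 4 and -0.0080 (q = 0.994) in clone 5 in the authors' deposited tables.

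SNAI2 rose to 9.34 CPM in the knockout, against 7.71 in wild type RPE1, and the authors' deposited table puts this at 0.28, SE 0.102, q = 0.0143. In CHP-134 it was at 7.41 CPM in clone 1 and 6.45 in clone 2, against 9.35 and 9.41 in wild type. The authors set it aside as an outlier in both, where their deposited tables put it at -0.34, SE 0.213 and -0.55, SE 0.216 and made no call. With outlier genes kept and q recomputed from fold change and SE, SNAI2 was called down in clone 2 and not called in clone 1. Its nearest usable neighbours in clone 2, UBE2V2 and PXDNL, were called down too, at -0.90 and -0.97 in the authors' deposited table. With doxycycline SNAI2 was at -0.22 (q = 0.645) and -0.025 (q = 0.985) in TetOn clones 4 and 5 in the authors' deposited tables.

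SOX11, a marker of neuroblastoma and of sympathetic progenitors, was the usable member not called in any of the 5 comparisons. It was at 16.5 CPM in the knockout and 16.3 in wild type RPE1, and at 298 in clone 1 and 303 in clone 2, against 281 and 282 in wild type CHP-134. The authors' deposited tables give 0.018, SE 0.0584, q = 0.817 in the knockout, 0.083, SE 0.068, q = 0.442 in clone 1 and 0.11, SE 0.0562, q = 0.112 in clone 2. Its neighbours RPS7 and ID2 were both called up in the knockout, at 0.088 and 0.65 in the authors' deposited table. The change of SOX11 in the knockout minus that in clone 2 was -0.087, with a 95% interval from -0.246 to 0.0719. With doxycycline it was at 0.052 (q = 0.918) in TetOn clone 4 and -0.074 (q = 0.909) in clone 5 in the authors' deposited tables.

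The 2 wild type lines differed widely in most members. RPE1 over CHP-134, the level ratio was 24.1 for TFAP2A, 17.9 for SOX9 and 8.75 for MITF. In the other direction, CHP-134 over RPE1, it was 17.2 for SOX11, 13.6 for TWIST1, 7.23 for SOX4 and 2.37 for ZNF488. MSX1 and SNAI2 were closest, at 0.855 and 0.825 for RPE1 over CHP-134. These ratios set separately scaled tables side by side and carry no test.

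Paralogs of the members were mostly under Low. Of 16, 7 were usable in the knockout, with 3 called up and 1 down. For this list and those below, the share of all usable genes called was 53.6% in the knockout, 18.7% in CHP-134 clone 1 and 46.2% in clone 2. It was 1.95% in TetOn clone 4 and 2.97% in TetOn clone 5. No list was tested against these shares. TWIST2 was at 1.03 and SOX12, the third SOX4-like factor, at 0.16, both called up, in the authors' deposited table. SOX12 was also called up at 0.17 in clone 1, q = 0.0499, and 0.16 in clone 2 in the authors' deposited tables. The MITF relatives TFEB and TFE3, which regulate lysosomal genes, were at -0.24 (q = 0.0629) and 0.071 (q = 0.0191) in the knockout in the authors' deposited table. Of this list 1 of 5 was called, up, in clone 1, 2 of 6, both up, in clone 2, and 0 of 6 in either TetOn clone (1 in each at an unadjusted p under 0.05).

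Among 29 plate border and neural crest specifiers, 19 were usable in the knockout, with 11 called up and 3 down, beside 53.6% of all usable genes called. Their median was 0.25, beside -0.0022 over all usable genes. DLX5, a border homeobox gene, was at 2.31 and ZIC2 at 1.66, and the nuclear receptor genes NR2F1 and NR2F2 at 0.24 and 0.31, all called up, in the authors' deposited table. CITED2, which encodes a coactivator of AP-2, fell by 0.74, SE 0.0301 in the knockout in the authors' deposited table, and was not called in clone 1 (0.17, q = 0.336) or clone 2 (0.065, q = 0.671). KCTD1 encodes a repressor of AP-2 alpha and was singled out after its values were seen. The authors' deposited tables put it at 0.49 (SE 0.0619), 0.29 (SE 0.104) and 0.40 (SE 0.093) in the knockout and clones 1 and 2. KCTD15, on the same list, was under Low in the knockout. It was at 0.0099 (q = 0.962) in clone 1 and 0.33 (q = 0.000196) in clone 2 in the authors' deposited tables. By the same deposited tables of the authors ETS1, a factor of cranial crest, fell by 0.13, SE 0.0271 in the knockout, 0.41, SE 0.101 in clone 1 and 0.70, SE 0.0978 in clone 2. ZEB2 was at 0.11 in the knockout, 0.49 in clone 1 and -0.56 in clone 2, all called, in the authors' deposited tables. NR2F2 also went in opposite directions, at 0.27 in clone 1 and -0.33 in clone 2, both called, in the authors' deposited tables. GBX2 rose in clones 1 and 2, at 0.55 and 0.57, all called, in the authors' deposited tables. DLX3 fell in clones 1 and 2, at -0.22 and -1.06, also called, in the authors' deposited tables. CHP-134 clone 1 had 6 called up and 4 down of 22 usable, beside 18.7% of all usable genes called. Clone 2 had 6 and 5 of 22, beside 46.2%, and among these DLX3 fell by 1.06 in the authors' deposited table. Doxycycline called 0 of 17 in TetOn clone 4 (1 at an unadjusted p under 0.05) and 1 of 15 in clone 5, NR2F1, down by 0.11 in the authors' deposited table.

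Pigment and MITF target genes were called in both directions in the knockout, where MITF was lower. Of 29 in the table, 18 were usable, 10 called up and 5 down, with a median of 0.11, beside 53.6% of all usable genes called. GPR143, the melanosomal receptor gene of ocular albinism, rose by 1.5, SE 0.0607, the protease gene CTSK by 0.65, SE 0.0455 and GPNMB by 0.24, SE 0.0202 in the authors' deposited table. CDK2 was at 0.48 in the authors' deposited table and lies on chromosome 12, where the median of 544 genes was 0.51 in this comparison. The transporter gene SLC45A2 fell by 1.01, SE 0.317, at a mean count of 19.8 in the authors' deposited table. The melanosome trafficking gene RAB38 fell by 0.46, SE 0.0762 in the authors' deposited table. GPR143 had mean counts of 0 and 0.787 in the authors' deposited tables of TetOn clones 4 and 5, against 677 in that of the knockout, so its level differed between RPE1 lines. CHP-134 clone 1 had 0 called up and 2 down of 13 usable, and clone 2 had 1 and 4 of 12, beside 18.7% and 46.2% of all usable genes. In TetOn clone 4, 0 of 15 were called (6 at an unadjusted p under 0.05), and in clone 5, 1 of 16, the melanosome linker gene MLPH, down by 0.18 in the authors' deposited table.

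Crest-inducing signals and their receptors split in the knockout, 6 up and 7 down of 21, beside 53.6% of all usable genes called. The stem cell factor gene KITLG, whose receptor guides melanoblasts, rose by 0.75, SE 0.0652, and WNT7B fell by 2.10, SE 0.172 and FGF2 by 0.60, SE 0.0433 in the authors' deposited table. KITLG lies on chromosome 12, whose median log2 fold change was 0.51 in the knockout. BMP2, a border-inducing ligand, fell by 0.73 in the knockout and by 0.52 and 0.54 with doxycycline in TetOn clones 4 and 5 in the authors' deposited tables. It was the list's call in TetOn clone 4, 1 of 20, and 1 of 3 falls among 21 in TetOn clone 5. CHP-134 clone 1 had 1 called up and 2 down of 20 usable, and clone 2 had 7 and 2 of 21, where the receptor gene PDGFRA fell by 3.76, SE 0.121 and BMP7 rose by 1.02, SE 0.133 in the authors' deposited table, while BMP7 fell by 0.86, SE 0.17 in clone 1.

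SOX9 cartilage targets were few. In the knockout 6 of 14 were usable, with 2 up and 2 down, beside 53.6% of all usable genes called. The chondroitin sulfotransferase gene CHST11 rose by 0.73, SE 0.0285 and COL11A2 by 0.68, SE 0.15, while COL11A1 fell by 0.21, SE 0.0473 in the authors' deposited table. CHST11 lies on chromosome 12, whose median log2 fold change was 0.51 in the knockout. CHST11 was also called in both CHP-134 clones, at 0.57 in clone 1 and -0.42 in clone 2 in the authors' deposited tables. Of 9 usable in each, clone 1 had 1 call, up, and clone 2 had 3, of which 1 was down. Doxycycline called 0 of 4 in either TetOn clone, with 0 also at an unadjusted p under 0.05.

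**Figure D4:**
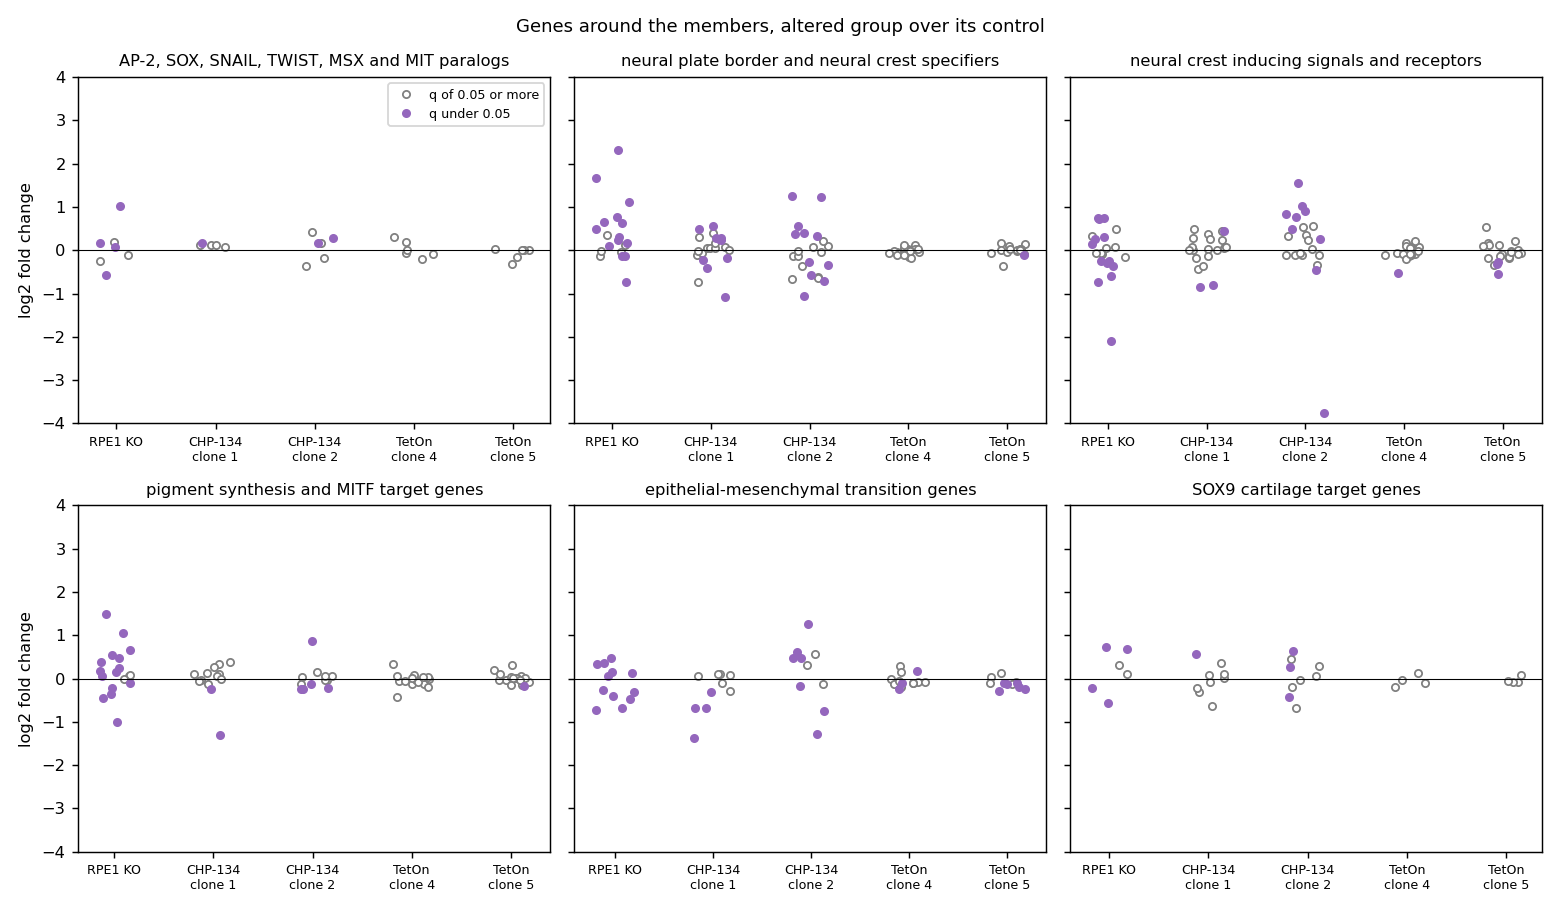
Log2 fold change (y axis), altered group over control, of the usable genes of 6 lists (panels) in the 5 comparisons (x axis); filled points had a q under 0.05. In the knockout 10 pigment and MITF target genes were called up and 5 down, and 11 border and crest specifiers up and 3 down. The share of all usable genes called there was 53.6%.

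The genes whose 5 log2 fold changes lay closest to those of a chosen member, by the root mean squared difference over the 5 comparisons, were listed as a description. For MITF they were SDC2 (0.116), MGLL (0.139) and C3orf52 (0.149), among 9013 genes. For TFAP2A they were AIFM2 (0.275), TPM2 (0.315) and FIGN (0.327), and for ZNF488 DECR1 (0.164), P4HA2 (0.166) and BAIAP2L1 (0.167), among 9014 genes, although ZNF488 itself was under Low in TetOn clone 4. SDC2 was at -0.94, -0.48 and -0.39 in the knockout and clones 1 and 2 in the authors' deposited tables.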

How the data were processed

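RNA sequencing of 39 libraries was analysed from 5 tables, 1 per comparison. STAR and DESeq2 are the tools named in the submitters' processing notes, which state neither's version; build, annotation, counting rule and strand were not found in any source used here. What the authors deposited is, per the file headers, a Status, a mean count over the libraries (treated as a signal, since its scaling is not stated), a log2 fold change with its standard error, and a q value, read as a p-value adjusted over genes. Whether fold changes were shrunken is not stated. The largest SE over all genes was 0.422 in the knockout comparison, 0.286 and 0.36 in CHP-134 clones 1 and 2, and 0.204 in either TetOn clone. At the lowest mean counts the SE was small, as for TYR in TetOn clone 4 (0.157, SE 0.0389 in the authors' deposited table). Both are features of shrunken fold changes, with a strength that differs between comparisons. The effect on differences between comparisons and on solved levels was not tested. No depth per library is known, so no interval for counting error is given.

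The planned tests per library could not be made, so calls were taken from the authors' q, with 0.05 as threshold. The members and lists were chosen with earlier results of these data known. Fold changes were compared between tables by dividing their difference by its SE, the square root of the 2 squared SEs added. The two-sided normal p was Benjamini-Hochberg adjusted over all genes usable in both (Python 3.11.15, pandas 2.3.3, scipy 1.17.1). The procedure was checked on simulated data with errors that were not shrunken, and for differences on the TetOn clones alone. For the CHP-134 clones this is conservative, since the wild type libraries are shared. Comparing the knockout with the CHP-134 clones was added after the data were seen and was not repeated with the null rescaled. The overlap of calls between the knockout and TetOn clone 5 was not planned. The group level is the mean count solved with the fold change for equal numbers of libraries. The genes named are the members, TRIM37, and from each list the 4 smallest q values in each comparison with a call, of which part are printed; TFEB, BMP7 in clone 1, KCTD1 and other list genes outside that rule were named for their role after their values were seen. Genes of the likeness search had a mean count of at least 50 in every table. All 10 members matched RefSeq on GRCh38.p14 by symbol, and 20900 symbols did in all; 5 members had a promoter entry. Chromosome medians in the report used a mean count of at least 100. Alternatives were other q thresholds, a minimum change, a count filter, outliers kept, a rescaled null and centred fold changes.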

Additional observations from a re-analysis of the deposited data

Results flagged for a closer look

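Some members changed differently in different lines under loss of TRIM37, by the test of the difference of log2 fold changes described above. SOX9 is one. Its change in the knockout minus that in CHP-134 clone 2 was 1.53, its change in the knockout minus that in clone 1 was 0.76, and its change in clone 2 minus that in clone 1 was -0.77. TWIST1 differed by 0.40 for the knockout minus clone 1 and by 0.53 for the knockout minus clone 2. MSX1 differed by 0.60 and 0.62 in the same 2 contrasts. SOX11 passed in none of these. Over all genes, 34.1% passed for the knockout minus clone 1, 46.5% for the knockout minus clone 2 and 20.5% for clone 2 minus clone 1. With the null rescaled, the SOX9 difference between the clones did not pass, and the contrasts with the knockout were not repeated. The knockout comparison has 9 libraries a group and the CHP-134 ones 3, and the lines differ in the level of each gene, so genotype, line and design cannot be told apart in these differences. Loss comparisons of the chosen genes were not tested for a difference.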

How the results depend on the processing

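No paired analysis was possible because the tables hold no value per library, and for the same reason leaving out libraries, another normalisation and count tests were not run. Of the counts of called members, those in the knockout went to 4 with an absolute log2 change of at least 0.5 and to 3 with the null rescaled, against 8. The counts in the loss comparisons include the chosen members, whose values there carry no test. With the null rescaled the counts were 0 in CHP-134 clone 1 and 0 in clone 2, against 3 and 4, and 0 for the difference between the clones, against 1, SOX9. In TetOn clone 4 the count was 1, SOX9, at a q under 0.1 and also 1 with chromosome medians subtracted, against 0. In TetOn clone 5 it was 0 with an absolute log2 change of at least 0.5, against 2. Over all genes, 1264 against 6963 calls were made with the null rescaled in the knockout, 236 against 2388 in clone 1 and 252 against 5898 in clone 2. Of the other counts 41 stayed within 1.5 times. Of the members' recentred fold changes 75 stayed on their side of the threshold. The exceptions were ZNF488 in clone 1 (-0.37), SOX9 in TetOn clone 4 (-0.17) and SOX11 in clone 2 (0.19), each with chromosome medians subtracted. Values of the chosen members in the loss comparisons are counted here as a description and carry no test.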

Other observations

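Genes of the epithelial-mesenchymal transition, the process SNAI2 and TWIST1 control, split in the knockout, 6 up and 6 down of 12 usable. The share of all usable genes called in the knockout was 53.6%. CDH2, the cadherin of mesenchymal and neural cells, fell by 0.27, SE 0.0163 and the matrix gene SPARC by 0.41, SE 0.0267 in the authors' deposited table, while VIM was called up at 0.34. KRT8 fell by 0.46 and its partner KRT18 was called up at 0.35 in the authors' deposited table, and both lie on chromosome 12. CHP-134 clone 1 had 0 called up and 4 down of 10 usable, and clone 2 had 4 and 3 of 10, beside 18.7% and 46.2% of all usable genes. FN1 and SPARC were called in both with opposite signs, FN1 at -0.68 and 0.47 and SPARC at -0.32 and 0.47 in the authors' deposited tables of clones 1 and 2, and LOX fell by 1.27 in clone 2. Doxycycline called 1 up and 2 down of 13 in TetOn clone 4 and 0 up and 6 down of 11 in clone 5, beside 1.95% and 2.97% of all usable genes. CDH6, a cadherin of delaminating crest, fell by 0.24, SE 0.0421 and 0.28, SE 0.034 there, and by 0.32, SE 0.0389 in the knockout in the authors' deposited tables.

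OTX2, a homeobox gene of forebrain and retinal pigment epithelium, was at -0.041, q = 0.484 in the knockout by the authors' deposited tables, and fell in CHP-134 by 1.68, SE 0.191 for clone 1 and by 0.84, SE 0.156 for clone 2. Of the markers of other cell types, fibroblast genes were called 1 up and 3 down of 5 in the knockout, 1 up and 1 down of 4 in clone 1, 2 up and 0 down of 5 in clone 2, 0 of 3 in TetOn clone 4 (1 at an unadjusted p under 0.05) and 1 down of 4 in clone 5. Schwann cell precursor genes had 1 call, up, of 3 in the knockout and 1, up, of 1 in clone 1, and 0 of 1 in each other comparison. Adrenergic neuroblastoma genes were called 2 up of 3 in the knockout, 6 up of 7 in clone 1, 3 up and 2 down of 7 in clone 2 and 0 of 2 in either TetOn clone. Melanocyte markers were called 1 up and 1 down of 2 in the knockout. The 1 up was PMEL, at 0.54 in the authors' deposited table, and it lies on chromosome 12, whose median was 0.51 there. Elsewhere 0 were called, of 1 usable in clone 1, 1 in clone 2, 0 in TetOn clone 4 and 2 in TetOn clone 5. Retinal pigment epithelium markers were called 2 up of 4 in the knockout, PMEL among them. They were called 1 up and 1 down of 3 in clone 1, 1 down of 3 in clone 2 and 0 of 3 in either TetOn clone. Beside these marker counts, the share of all usable genes called was 53.6% in the knockout, 18.7% in clone 1 and 46.2% in clone 2. It was 1.95% and 2.97% in TetOn clones 4 and 5. The part of these markers in the members' values was not tested. Where the other marker lists had 0 calls, they also had 0 at an unadjusted p under 0.05.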
